A study of Mus musculus with 30 samples.

Results

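The 10 genes described here encode the machinery by which a cell displays fragments of its own proteins on major histocompatibility complex (MHC) class I molecules: H2-K1, H2-D1, B2m, Tap1, Tap2, Tapbp, Psmb8, Psmb9, Psmb10 and Nlrc5. They were taken by name from a table of 29861 genes, through the GENCODE M21 symbols of the Ensembl identifiers, and all 10 were present. The cells were primary tail fibroblasts of UMHet3 mice, a genetically mixed stock, listed under 1 line name (CCG-HTA-1) at passage 4. Total RNA was taken 48 h after a compound or the solvent DMSO was added, and ribosomal RNA was depleted before sequencing. Each of 8 compounds had 3 libraries (Antimycin A, Dihydrorotenone, Diphenyleneiodonium Cl, Cardamonin, BerberineA, Clofilium tosylate, AEG 3482 and Podofilox) and DMSO had 6. The donor mice were 5 to 8 weeks old for 29 libraries and 8 to 11 weeks old, per the label, for Dihydrorotenone replicate 1. No group carried a genetic change. The series text counts 5 DMSO replicates, and the table holds 6. The doses are not given in the sources used here, so compounds are compared at doses that may not match. Antimycin A is an inhibitor of respiratory complex III and Dihydrorotenone a relative of the complex I inhibitor rotenone. Diphenyleneiodonium blocks flavoenzymes, Clofilium blocks potassium channels, Podofilox binds tubulin and stops microtubule assembly, and Cardamonin is a plant chalcone.

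In most nucleated cells proteasomes cut cytosolic proteins into peptides, the transporter made of TAP1 and TAP2 moves them into the endoplasmic reticulum, and tapasin (Tapbp) holds empty class I molecules at the transporter until a peptide binds. The finished complex at the cell surface is a heavy chain (H2-K1 or H2-D1), the light chain beta-2-microglobulin (B2m) and the peptide, and cytotoxic T cells read it. Interferons raise the whole set together: the inducible catalytic subunits PSMB8, PSMB9 and PSMB10 take the place of the constitutive PSMB5, PSMB6 and PSMB7 to form the immunoproteasome, and the transactivator NLRC5 acts at class I promoters. Fibroblasts express the pathway at a basal level and are a common model for its induction.

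The values were in TPM, the abundance of a gene's transcripts per length as a part of its library, so genes can be compared within a library. The number of reads behind them is not in the table, so no counting error is given. The labels do not say that libraries of a group came from separate cultures, and p-values then measure only the spread between these libraries, which may be technical. Fibroblast markers were high in every group: the summed level of 10 (Col1a1, Col1a2, Col3a1, Dcn, Lum, Pdgfra, Pdgfrb, Thy1, Vim and S100a4) ran from 4800.3 to 5967 TPM in Cardamonin to 13057 to 14424 TPM in AEG 3482. The DMSO sums were 11948 to 13543 TPM, so the Cardamonin libraries lay well below them. Of 10 macrophage or dendritic cell markers 7 reached 1 TPM in some library, and their sum was 195 to 256 TPM in DMSO, 104 to 117 TPM in Antimycin A and 168 to 191 TPM in Cardamonin, most of it from Lyz2, Cd14 and Cd68. The pan-leukocyte gene Ptprc (CD45) stayed between 0.239 and 0.876 TPM and Itgax, a dendritic cell marker, between 0 and 0.247 TPM. Other markers of this list were higher: Adgre1 ran from 1.62 to 12.1 TPM, Csf1r from 0.698 to 3.46 TPM and Aif1 from 0.584 to 2.49 TPM. Of 10 lymphocyte markers, Nkg7 and Ncr1 were at 0 in all libraries and the summed level did not pass 2.14 TPM. The summed level of 7 melanocyte or Schwann cell markers was 19.5 to 21.3 TPM in Antimycin A and 8.61 to 10.99 TPM in DMSO. It was 9.98 to 13.3 TPM in Podofilox, 4.62 to 5.97 TPM in Cardamonin and 4.12 to 4.75 TPM in AEG 3482. Mlana had a median of 7.12 TPM over all libraries and a low of 0.228 TPM, so it was not most of every sum. Dct was at most 0.0468 TPM and Sox10 at most 0.294 TPM. The sum of 6 endothelial markers was 6.13 to 9.86 TPM in DMSO, 2.23 to 2.93 TPM in Cardamonin and 2.40 to 2.55 TPM in AEG 3482. Tek had a median of 5.94 TPM over all libraries and a low of 0.477 TPM, so it was not most of every sum. Cdh5 and Emcn were at 0 in most libraries. The part of these other-cell transcripts in the results below was not tested. In bulk RNA, fewer cells of a type and less RNA per cell cannot be told apart.

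Most of the members lie in the MHC, and some share sequence. On mouse chromosome 17 (GRCm38), the MHC holds Tapbp (ENSMUSG00000024308, 33915899-33929292, plus strand), H2-K1 (ENSMUSG00000061232, 33996017-34000347, minus), Psmb9 (ENSMUSG00000096727, 34181987-34187764, minus), Tap1 (ENSMUSG00000037321, 34187553-34197225, plus), Psmb8 (ENSMUSG00000024338, 34197721-34201454, plus), Tap2 (ENSMUSG00000024339, 34203527-34216321, plus) and H2-D1 (ENSMUSG00000073411, 35262730-35267499, plus). B2m lies on chromosome 2 (ENSMUSG00000060802, 122147686-122153083, plus), and Psmb10 (ENSMUSG00000031897, 105935735-105938444, minus) and Nlrc5 (ENSMUSG00000074151, 94434356-94527272, plus) lie on chromosome 8. Of the 31-base words in their GENCODE transcripts, 22.8% of those of H2-K1 and 26.9% of those of H2-D1 also occurred in other genes, most often in each other (11.1% and 13.8%). The share was 26.9% for Tapbp, 14.3% for Tap2 and 13.7% for Psmb8, mostly with overlapping predicted genes, 4.09% for Tap1 and 4.79% for Psmb9, and 0 for B2m and Psmb10. The reference is of C57BL/6J mice, while class I genes differ between mouse strains, and how that affected H2-K1 and H2-D1 was not tested.

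Upstream sequences of 5 members are shown to let the motifs found in them be compared. RefSeq (GRCm38.p6) gave a promoter window of 300 bases for 8 of the 10 genes, not for Tap2 and Nlrc5. Short motifs were searched on both strands: AANNGAAA, the core bound by interferon regulatory factors, and its longer form GAANNGAAA, GGGNNTTCC, a kappa B type site, CCAAT, and TGACG, found in cyclic AMP response elements. Capitals mark every match, and the sequences run 5′ to 3′ on the strand of the gene (the plus strand for Tap1 and Psmb9) and end at the base before the annotated start. H2-K1 is chr17:34000348-34000547 (minus, from the first of 2 RefSeq windows), H2-D1 is chr17:35262894-35263093 (plus), B2m is chr2:122147487-122147686 (plus), and the stretch between the divergent starts of Psmb9 and Tap1 is chr17:34187331-34187555.
H2-K1: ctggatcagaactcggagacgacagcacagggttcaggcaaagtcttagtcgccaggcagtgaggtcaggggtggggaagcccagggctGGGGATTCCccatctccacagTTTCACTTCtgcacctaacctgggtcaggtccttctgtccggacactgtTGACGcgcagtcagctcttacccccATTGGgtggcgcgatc
H2-D1: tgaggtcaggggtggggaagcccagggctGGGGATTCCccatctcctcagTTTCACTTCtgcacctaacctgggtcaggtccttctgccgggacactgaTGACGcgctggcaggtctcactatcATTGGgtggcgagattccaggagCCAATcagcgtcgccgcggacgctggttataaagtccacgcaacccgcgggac
B2m: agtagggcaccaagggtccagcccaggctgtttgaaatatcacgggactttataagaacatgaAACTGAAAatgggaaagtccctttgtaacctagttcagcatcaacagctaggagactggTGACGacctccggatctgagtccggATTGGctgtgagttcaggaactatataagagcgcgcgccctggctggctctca
Psmb9 and Tap1: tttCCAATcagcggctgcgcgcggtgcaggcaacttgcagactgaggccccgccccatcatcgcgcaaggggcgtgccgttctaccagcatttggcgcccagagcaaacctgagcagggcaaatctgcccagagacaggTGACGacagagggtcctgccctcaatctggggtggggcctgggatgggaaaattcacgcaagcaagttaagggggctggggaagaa
H2-K1 and H2-D1 carried the same order of elements, a kappa B type match GGGGATTCC, then TTTCACTTC (the reverse of the longer IRF core), then TGACG and the reverse CCAAT, and both had a forward CCAAT after these, in H2-K1 just beyond the start at which the printed stretch ends. B2m held the shorter IRF core, TGACG and the reverse CCAAT. The 225 bases between Psmb9 and Tap1 held CCAAT and TGACG and no match to either IRF core or GGGNNTTCC. The windows of Tapbp, Psmb8 and Psmb10 are not printed: Tapbp held CCAAT, and the other pair held none of these 5 motifs. In all 32544 RefSeq promoter windows of this length, AANNGAAA matched in 23.9%, GAANNGAAA in 7.57%, GGGNNTTCC in 5.85%, CCAAT in 37.4% and TGACG in 20.9%. These are matches of letters and not measured binding sites.

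The compounds divided into 5 under which the 10 genes were mostly called higher than in DMSO and 3 under which they were mostly called lower. Calls come from limma on log2(TPM + 1) over all 30 libraries, with Benjamini-Hochberg adjustment over 13644 genes (those that reached 1 TPM in 3 or more libraries) and a threshold of 0.05. Differences are on that log2 scale, which understates changes of low genes. All 8 comparisons share the same DMSO libraries. With Antimycin A 10 of 10 rose, beside 21.8% of all genes tested called higher and 15.5% called lower. Their median log2 difference was 0.86, against 0.03 for all genes tested. With Diphenyleneiodonium Cl 10 of 10 rose (background 14.0% higher, 11.7% lower), with a median of 0.66 against 0.02. With BerberineA 9 rose (12.6% higher, 9.16% lower), with a median of 0.52 against 0.02. These shares of called members were well above the share of all genes called higher in the same comparison. The members were chosen with earlier results of these data known. The contrasts with all genes, here and in the next paragraph, are therefore not independent tests. With Clofilium tosylate 9 rose (10.9% higher, 12.5% lower), with a median of 0.57 against -0.00015. With Dihydrorotenone 7 rose (4.95% higher, 9.43% lower), with a median of 0.40 against -0.03. Without Dihydrorotenone replicate 1, the library with the other age label, 6 rose, since B2m lost its call. No member was called lower with any of these 5 compounds.

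With Cardamonin 9 of 10 fell, beside 37.3% of all genes tested called higher and 33.0% called lower, and the members' median log2 difference was -1.19 against 0.03. With AEG 3482 9 fell (41.3% higher, 26.8% lower), with a median of -0.81 against 0.10. With Podofilox 9 fell (26.2% higher, 20% lower), with a median of -0.82 against 0.04. No member was called higher with these 3 compounds. The exceptions were Nlrc5 with Cardamonin and Podofilox and Tap1 with AEG 3482. Most genes tested were called in 1 direction or the other with Cardamonin and AEG 3482, so the members' counts there stand against a high background. For Dihydrorotenone the share of higher among all called genes was 34.4% as scaled by the authors, 53.8% after median-ratio scaling and 47.2% after quantile normalization, and the members called higher numbered 7, 9 and 8. The summed level of the 10 genes was 6996 ± 567 TPM in DMSO (mean ± SD, n = 6), 11474 ± 455 TPM in Antimycin A and 3759.9 ± 213 TPM in Cardamonin (n = 3 each). B2m alone made up 62.8% of that sum in DMSO and 57.3% in Cardamonin.

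**Figure D1:**
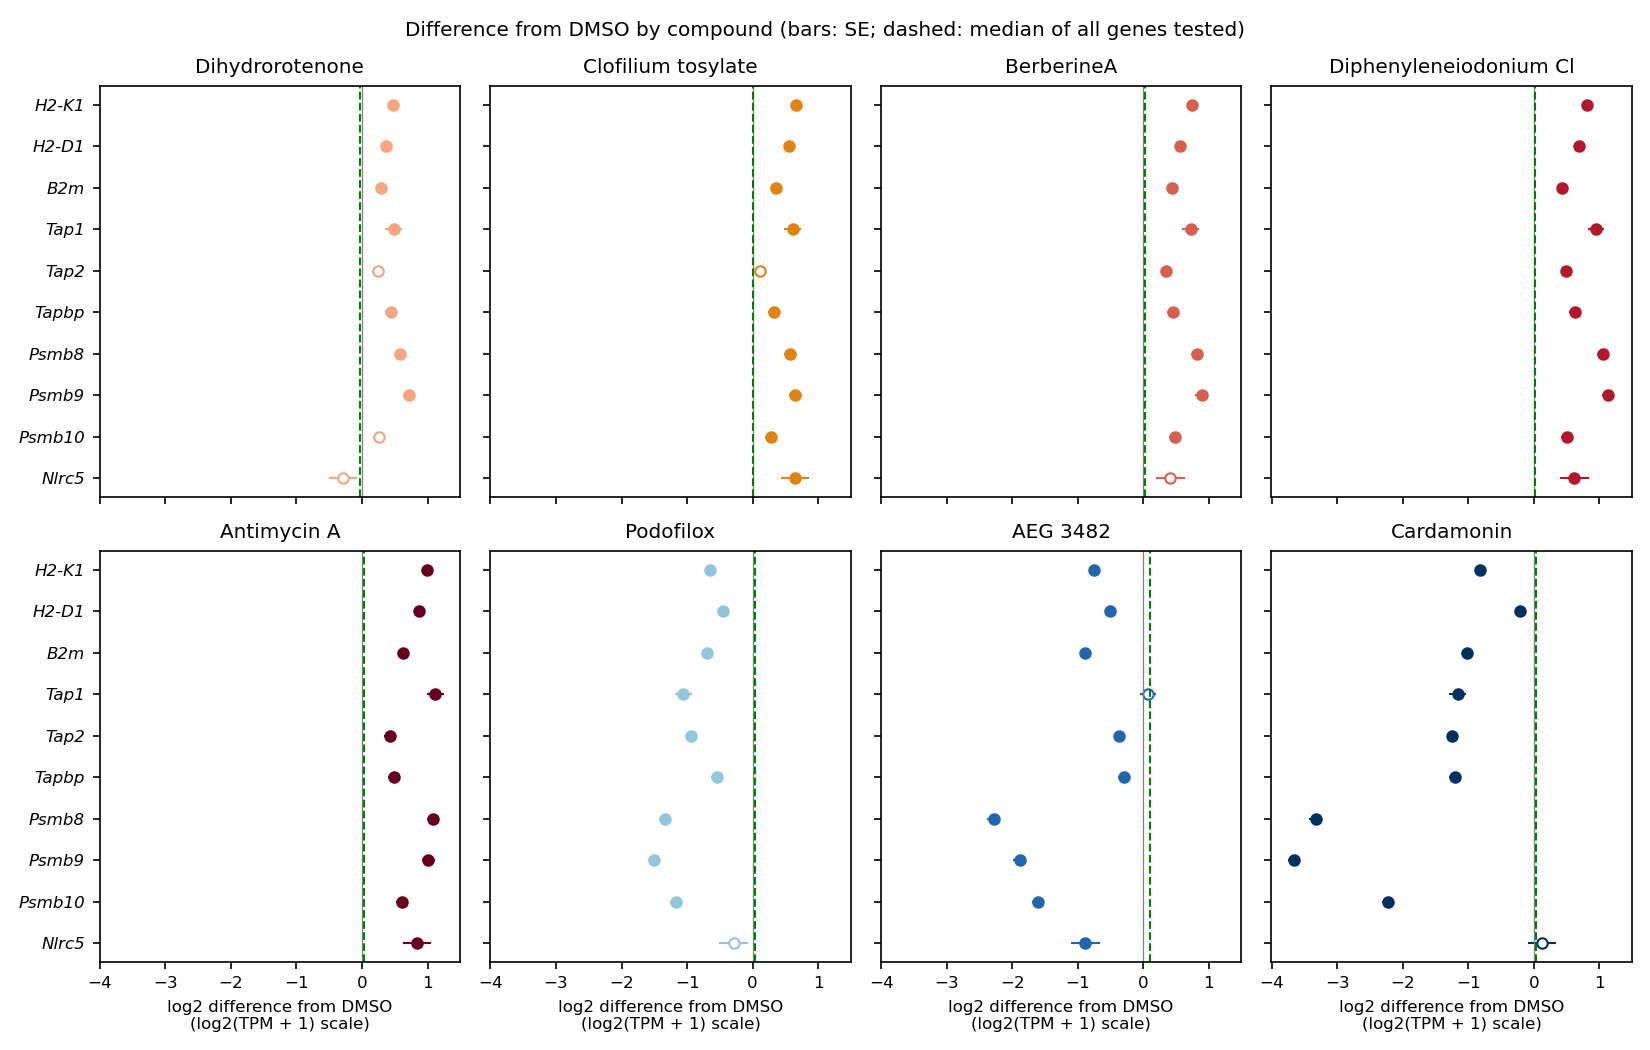
Log2 difference from DMSO (x axis, log2(TPM + 1) scale) of each of the 10 genes (y axis) in each compound, from limma. Filled points passed an adjusted p of 0.05, open points did not, bars are SE, and the dashed line is the median of all genes tested. The inducible subunits Psmb8, Psmb9 and Psmb10 lie farthest left with Cardamonin, at -3.33, -3.66 and -2.23.

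B2m, H2-K1 and H2-D1, the parts of the class I molecule itself, were the most abundant members in DMSO (4395 ± 395 TPM, 987 ± 83.2 TPM and 902 ± 59.1 TPM, SD, n = 6). Tapbp followed at 495 ± 46.4 TPM, then Psmb8 at 69.2 ± 7.81 TPM and Tap2 at 55.4 ± 4.36 TPM. Tap1 (30.9 ± 3.62 TPM), Psmb10 (29.8 ± 2.71 TPM) and Psmb9 (27.9 ± 4.23 TPM) lay within a narrow range, and Nlrc5 was lowest at 4.07 ± 1.29 TPM. Within DMSO, replicate 6 was the lowest library for 9 of the 10 genes, and replicate 4 was the lowest for Nlrc5. Without DMSO replicate 6 the counts of members called were the same in 6 compounds, and became 9 with Diphenyleneiodonium Cl and 8 with Clofilium tosylate through the loss of Nlrc5.

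**Figure D2:**
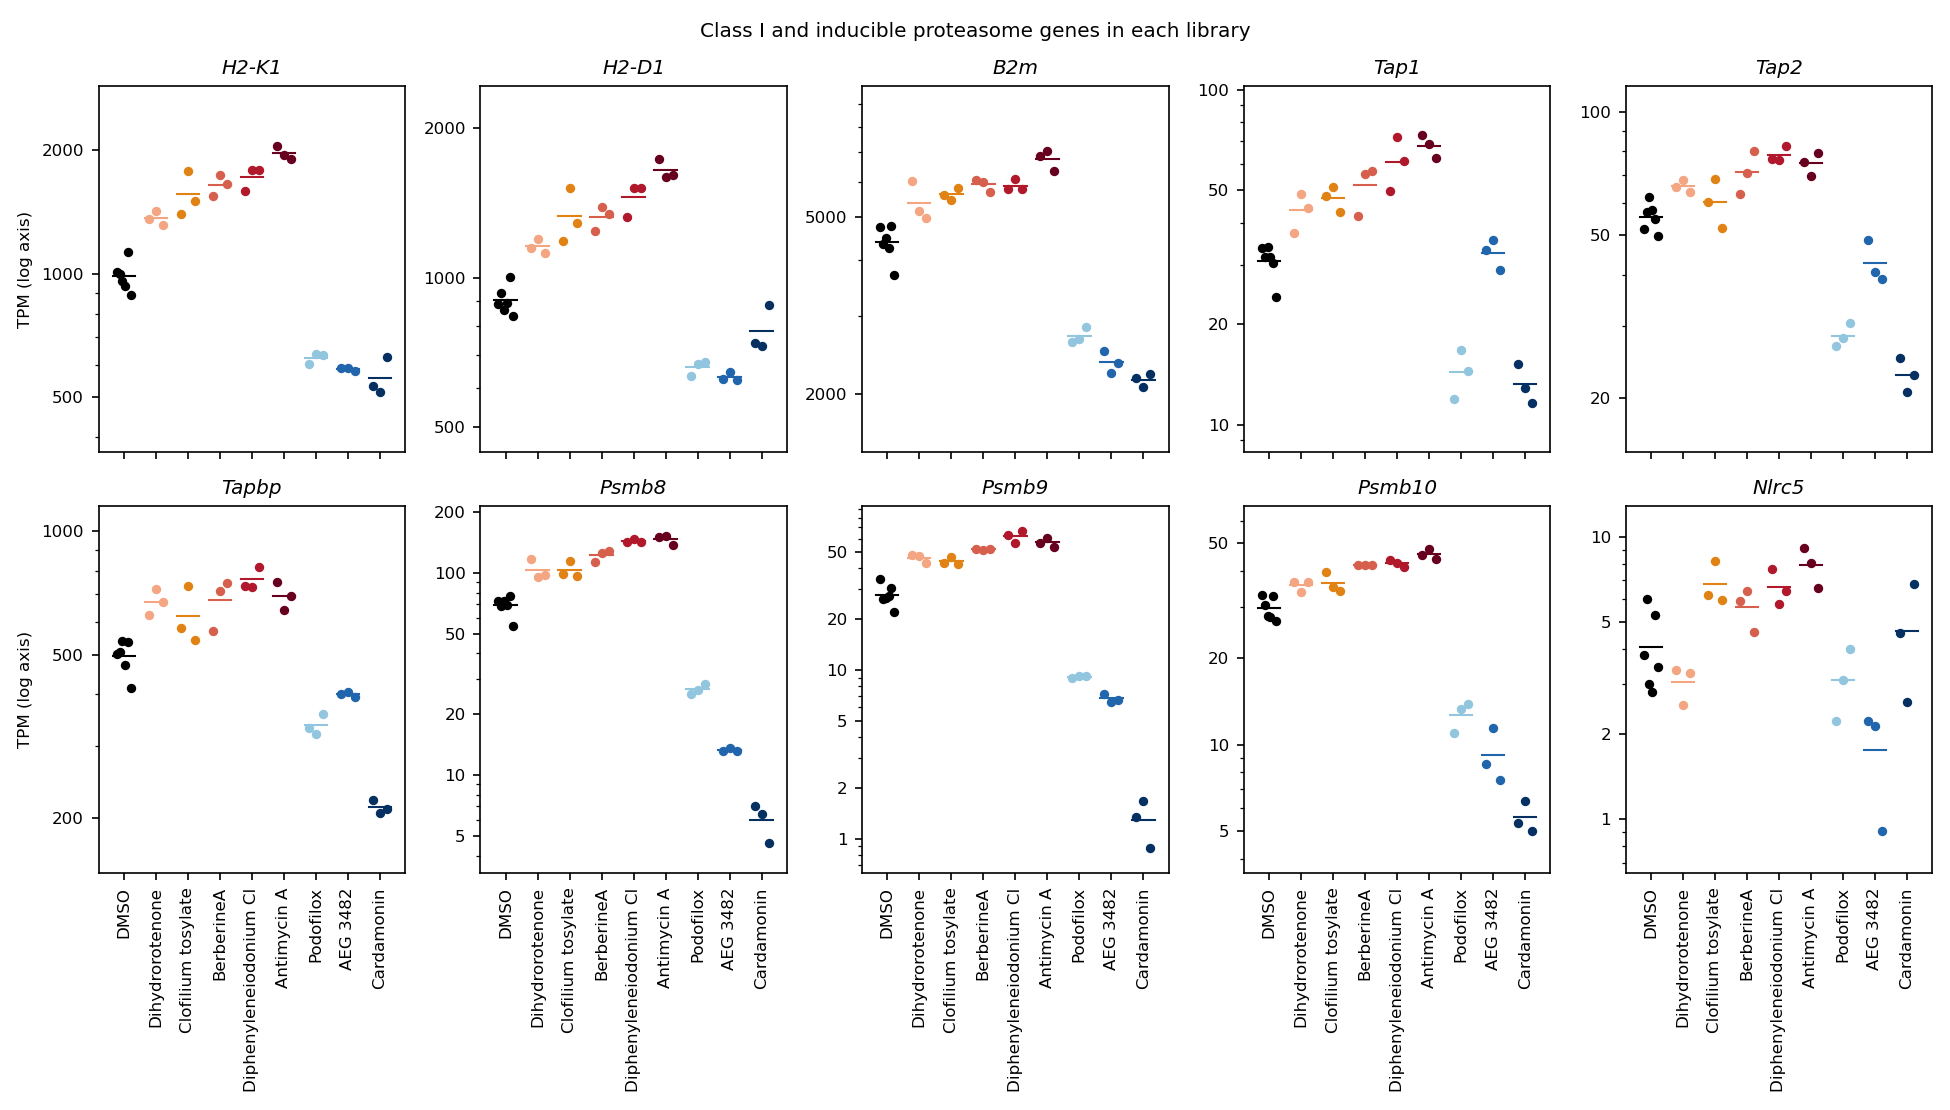
Level of each of the 10 genes in every library (y axis, TPM, log axis with a range of its own in each panel) by group (x axis). Points are libraries and lines are group means. For H2-K1 the 6 DMSO libraries lie between 889 and 1131 TPM, all below the Antimycin A libraries and above those of Cardamonin, AEG 3482 and Podofilox.

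H2-K1, a classical class I heavy chain, was at 889 to 1131 TPM with a median of 978 in the 6 DMSO libraries. It was at 2049, 1948 and 1906 TPM with Antimycin A, a difference of 0.998 ± 0.07 on the log2 scale (SE, limma adjusted p = 3.85e-11). It was at 1359, 1424 and 1316 TPM with Dihydrorotenone, the smallest of the 5 rises (0.47 ± 0.07, limma adjusted p = 6.79e-05). All libraries of these 5 compounds lay above all of DMSO. Between these it was at 1596, 1789 and 1795 TPM with Diphenyleneiodonium Cl (0.81 ± 0.07), 1547, 1739 and 1653 TPM with BerberineA (0.74 ± 0.07) and 1402, 1776 and 1507 TPM with Clofilium tosylate (0.66 ± 0.07), whose libraries spread most. With Cardamonin it was at 532, 515 and 627 TPM (-0.82 ± 0.07, limma adjusted p = 1.05e-10), with AEG 3482 at 590.02, 589.99 and 579.9 TPM (-0.75 ± 0.07) and with Podofilox at 604, 637 and 633 TPM (-0.65 ± 0.07). These 3 groups lay below all DMSO libraries, and their neighbours in the order of means did not differ past the threshold.

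H2-D1, the second classical heavy chain, was at 839 to 1004 TPM with a median of 888 in DMSO and followed H2-K1 in the 5 compounds with rises, from 0.36 with Dihydrorotenone to 0.87 with Antimycin A. Its Antimycin A libraries were at 1738, 1597 and 1608 TPM and its Dihydrorotenone libraries at 1148, 1198 and 1123 TPM. Those of Diphenyleneiodonium Cl were at 1323, 1519 and 1513 TPM (0.69 ± 0.07), of BerberineA at 1239.8, 1387 and 1344 TPM (0.55 ± 0.07) and of Clofilium tosylate at 1185, 1517 and 1287 TPM (0.55 ± 0.07), all above the highest DMSO library. With Cardamonin it departed from H2-K1: its libraries were at 740.4, 728 and 882 TPM, and the third lay inside the DMSO range. The difference was -0.21 ± 0.07 (limma adjusted p = 0.0104), and the call was lost after quantile normalization (adjusted p = 0.156) and without Cardamonin replicate 1 (0.0685) or 2 (0.0852). AEG 3482 and Podofilox lowered it further than Cardamonin, to 625, 646 and 624 TPM (-0.51 ± 0.07) and 634, 669 and 678 TPM (-0.45 ± 0.07), with no overlap with DMSO.

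The ratio of H2-K1 to H2-D1 was computed after the values had been seen and carries no test. It was 1.05 to 1.14 in the 6 DMSO libraries, 1.18, 1.22 and 1.19 with Antimycin A and 0.718, 0.707 and 0.710 with Cardamonin. The Cardamonin libraries lay below all others, and those of AEG 3482 (0.913 to 0.944) and Podofilox (0.934 to 0.953) lay between them and DMSO. The 2 genes share part of their sequence, as given above, and its effect on the ratio was not tested.

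B2m, the light chain shared by all class I molecules, was at 3709.8 to 4779.9 TPM with a median of 4424 in DMSO. It rose with all 5 compounds, most with Antimycin A (6868, 7057 and 6367 TPM, 0.63 ± 0.06, limma adjusted p = 2.61e-08) and least with Dihydrorotenone (6025, 5168 and 4983 TPM, 0.29 ± 0.06, adjusted p = 0.00292). Dihydrorotenone replicate 1, the library with the other age label, was the highest of its group, and without it the call was lost (0.21, adjusted p = 0.0522). It was at 6076, 6003 and 5703 TPM with BerberineA (0.44 ± 0.06), 5779.6, 6106 and 5793 TPM with Diphenyleneiodonium Cl (0.43 ± 0.06) and 5599, 5470.1 and 5807 TPM with Clofilium tosylate (0.36 ± 0.06), again above all DMSO libraries. After quantile normalization the difference was 0.18 with Dihydrorotenone (limma adjusted p = 0.0541), 0.18 with BerberineA (0.0377) and -0.45 with Podofilox, whose values follow. B2m fell to 2173, 2067 and 2218 TPM with Cardamonin, a 2.04-fold lower mean (-1.03 ± 0.06, adjusted p = 2.47e-13). It fell to 2491, 2225 and 2351 TPM with AEG 3482 (-0.90 ± 0.06) and 2616, 2658 and 2830.1 TPM with Podofilox (-0.70 ± 0.06), all below the lowest DMSO library.

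Tap1, a subunit of the peptide transporter, was at 24.1 to 34.02 TPM with a median of 31.6 in DMSO. It reached 73.2, 68.7 and 62.4 TPM with Antimycin A, 2.20 times the DMSO mean (1.12 ± 0.13, limma adjusted p = 9.91e-08). It rose with the other 4 compounds of that set too, from 0.48 with Dihydrorotenone, where the call was lost without replicate 2 (adjusted p = 0.0864), to 0.95 with Diphenyleneiodonium Cl. Its libraries were at 49.7, 72.1 and 61.02 TPM with Diphenyleneiodonium Cl, 42.1, 55.98 and 57.3 TPM with BerberineA (0.72 ± 0.13), 48.1, 51.4 and 43.2 TPM with Clofilium tosylate (0.61 ± 0.13) and 37.4, 48.9 and 44.4 TPM with Dihydrorotenone, and none overlapped DMSO. With Cardamonin it fell to 15.2, 12.9 and 11.6 TPM (-1.16 ± 0.13) and with Podofilox to 11.9, 16.7 and 14.5 TPM (-1.06 ± 0.13). With AEG 3482 it did not pass the test: its libraries were at 33.1, 35.5 and 28.9 TPM and overlapped those of DMSO (0.08 ± 0.13, adjusted p = 0.613), with a value below 0 under median-ratio scaling (-0.03) and quantile normalization (-0.08).

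Tap2, the partner subunit, was at 49.9 to 61.8 TPM with a median of 55.8 in DMSO and rose with Antimycin A (75.6, 69.5 and 79.4 TPM, 0.43 ± 0.09, limma adjusted p = 0.000263), Diphenyleneiodonium Cl (0.50) and BerberineA (0.35, lost without BerberineA replicate 3, adjusted p = 0.0536). It did not pass the test with Dihydrorotenone (0.25 ± 0.09, adjusted p = 0.0549) or Clofilium tosylate (0.11 ± 0.09, adjusted p = 0.377). The Dihydrorotenone difference did pass after median-ratio scaling (adjusted p = 0.0111) and on leaving out any 1 of 6 libraries: DMSO replicate 3 (adjusted p = 0.0363), BerberineA replicates 1 and 3, Clofilium tosylate replicates 2 and 3, and AEG 3482 replicate 1. Its libraries were at 76.5, 76.4 and 82.6 TPM with Diphenyleneiodonium Cl, 63.1, 70.7 and 80.2 TPM with BerberineA, 65.6, 68.1 and 63.6 TPM with Dihydrorotenone and 60.2, 68.6 and 52.1 TPM with Clofilium tosylate. Only the last of these overlapped DMSO. Tap2 fell to 25.1, 20.7 and 22.8 TPM with Cardamonin (-1.24 ± 0.09), 26.8, 28.05 and 30.5 TPM with Podofilox (-0.94 ± 0.09) and 48.7, 40.7 and 39.05 TPM with AEG 3482 (-0.37 ± 0.09). These 3 groups did not overlap each other, and each differed from its neighbour in the order of means.

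Tapbp, which encodes tapasin, was at 414 to 539 TPM with a median of 504 in DMSO and had the smallest of the 9 falls under AEG 3482, to 400.2, 406 and 394 TPM (-0.30 ± 0.09, limma adjusted p = 0.00445). It fell to 222, 206 and 210.5 TPM with Cardamonin (-1.21 ± 0.09) and 331, 319.9 and 359 TPM with Podofilox (-0.55 ± 0.09), with no overlap with DMSO. It rose most with Diphenyleneiodonium Cl (736, 729.8 and 819 TPM, 0.62 ± 0.09) and least with Clofilium tosylate (581, 735 and 544 TPM, 0.32 ± 0.09). The Clofilium tosylate call rested on replicate 2, the highest of that group, and was lost without it (adjusted p = 0.169). With Antimycin A it was at 749, 641 and 695 TPM (0.49 ± 0.09), with BerberineA at 572, 713 and 746 TPM (0.45 ± 0.09) and with Dihydrorotenone at 623, 724 and 671 TPM (0.45 ± 0.09). All 15 libraries of the 5 compounds with rises lay above DMSO for this gene.

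Psmb8, Psmb9 and Psmb10, the inducible catalytic subunits, showed the largest falls of the set. Psmb9 was at 21.99 to 34.4 TPM with a median of 27.04 in DMSO and at 1.34, 1.66 and 0.878 TPM with Cardamonin, a mean 21.6 times lower (-3.66 ± 0.10 on the log2(TPM + 1) scale, limma adjusted p = 5.44e-21). Psmb8 was at 54.4 to 77.1 TPM with a median of 71.2 in DMSO and at 7.05, 6.40 and 4.61 TPM with Cardamonin, a mean 11.5 times lower (-3.33 ± 0.10, adjusted p = 3.26e-20). Psmb10 was at 26.9 to 33.03 TPM with a median of 29.2 in DMSO and at 5.34, 6.37 and 5.02 TPM with Cardamonin, a mean 5.34 times lower (-2.23 ± 0.09, adjusted p = 3.30e-17). The highest Cardamonin library lay far below the lowest DMSO library for each of these genes. Psmb9 with Cardamonin lay near the 1 TPM of the filter, so the size of its fall is uncertain. Over the alternatives tried its log2 difference ran from -4.36 to -2.38.

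With AEG 3482 Psmb8 was at 13.1, 13.7 and 13.2 TPM (-2.28 ± 0.10, limma adjusted p = 1.21e-16), Psmb9 at 7.21, 6.47 and 6.60 TPM (-1.88 ± 0.10) and Psmb10 at 8.59, 11.4 and 7.53 TPM (-1.61 ± 0.09). With Podofilox they were at 25.3, 26.4 and 28.3 TPM (-1.34 ± 0.10), 8.98, 9.17 and 9.14 TPM (-1.50 ± 0.10) and 10.9, 13.3 and 13.8 TPM (-1.17 ± 0.09). For all 3 genes the order from high to low was DMSO, Podofilox, AEG 3482 and Cardamonin, and each step passed the threshold. In the other direction Psmb8 reached 151, 152 and 137 TPM with Antimycin A (1.08 ± 0.10) and 142, 147 and 142 TPM with Diphenyleneiodonium Cl (1.05 ± 0.10). It was at 113, 126 and 129 TPM with BerberineA (0.82 ± 0.10), 117, 95.7 and 97.5 TPM with Dihydrorotenone (0.58 ± 0.10) and 99.1, 114 and 96.6 TPM with Clofilium tosylate (0.58 ± 0.10). None of these libraries overlapped DMSO. Psmb9 was highest with Diphenyleneiodonium Cl (62.7, 56.5 and 66.4 TPM, 1.13 ± 0.10), followed by Antimycin A (56.7, 60.3 and 53.7 TPM, 1.01 ± 0.10). It was at 52.3, 51.7 and 52.1 TPM with BerberineA (0.89 ± 0.10), 47.9, 47.4 and 42.96 TPM with Dihydrorotenone (0.72 ± 0.10) and 42.999, 46.5 and 42.6 TPM with Clofilium tosylate (0.65 ± 0.10). These too lay above all of DMSO. Psmb10 moved less upward, at most 0.61 ± 0.09 with Antimycin A (45.4, 47.99 and 44.1 TPM), 0.51 ± 0.09 with Diphenyleneiodonium Cl (43.9, 42.6 and 41.5 TPM) and 0.49 ± 0.09 with BerberineA (41.95, 41.9 and 42.2 TPM), and did not pass with Dihydrorotenone (0.26 ± 0.09, adjusted p = 0.0594). The Dihydrorotenone libraries (36.6, 33.9 and 36.9 TPM) all lay above DMSO, and the difference passed after median-ratio scaling (adjusted p = 0.0425) and without DMSO replicate 1 or 5, AEG 3482 replicate 2 or 3, or Podofilox replicate 1. Its Clofilium tosylate call (0.28 ± 0.09, adjusted p = 0.0252) was lost without replicate 1 (0.152) or 2 (0.0524) of that group.

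The constitutive counterparts did not follow. Psmb5, which PSMB8 replaces, was at 95.95 to 139 TPM with a median of 115 in DMSO and at 209, 210.4 and 239 TPM with Cardamonin (0.92 ± 0.07, limma adjusted p = 1.15e-11). The ratio of Psmb8 to Psmb5 was 0.609 ± 0.122 in DMSO (SD, n = 6), 1.22 ± 0.0334 with Antimycin A, 0.198 ± 0.0143 with Podofilox, 0.0692 ± 0.00291 with AEG 3482 and 0.0278 ± 0.00755 with Cardamonin (n = 3 each). Antimycin A, Diphenyleneiodonium Cl and BerberineA had a mean ratio above 1, and the other 6 groups one below 1. Of the 31-base words of Psmb5 71.7% also occur in other genes (59.8% in Gm3375), and the effect of shared reads on its level, and so on the size of this ratio, was not tested. The ratio of Psmb9 to Psmb6 was 0.168 ± 0.0336 in DMSO, 0.381 ± 0.0306 with Diphenyleneiodonium Cl and 0.00491 ± 0.00181 with Cardamonin, where Psmb9 lay near 1 TPM. The ratio of Psmb10 to Psmb7 was 0.259 ± 0.0343 in DMSO, 0.383 ± 0.00335 with Antimycin A and 0.0297 ± 0.00448 with Cardamonin. Of 24 comparisons of a log2 ratio with DMSO, 22 passed 0.05 after Benjamini-Hochberg adjustment in an exact two-sided permutation test over libraries (adjusted p = 0.0260 each, from a p of 0.0238, the smallest that 84 arrangements can give in a two-sided test). The exceptions were Psmb10 to Psmb7 with Dihydrorotenone and with Clofilium tosylate, where the libraries overlapped DMSO (exact permutation p = 0.0714 each). All 24 comparisons used the same DMSO libraries, and the adjusted p depends on how many of them reach the smallest p. Most genes tested were called with Cardamonin and AEG 3482, as given above. How often ratios of other genes would pass was not computed.

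**Figure D3:**
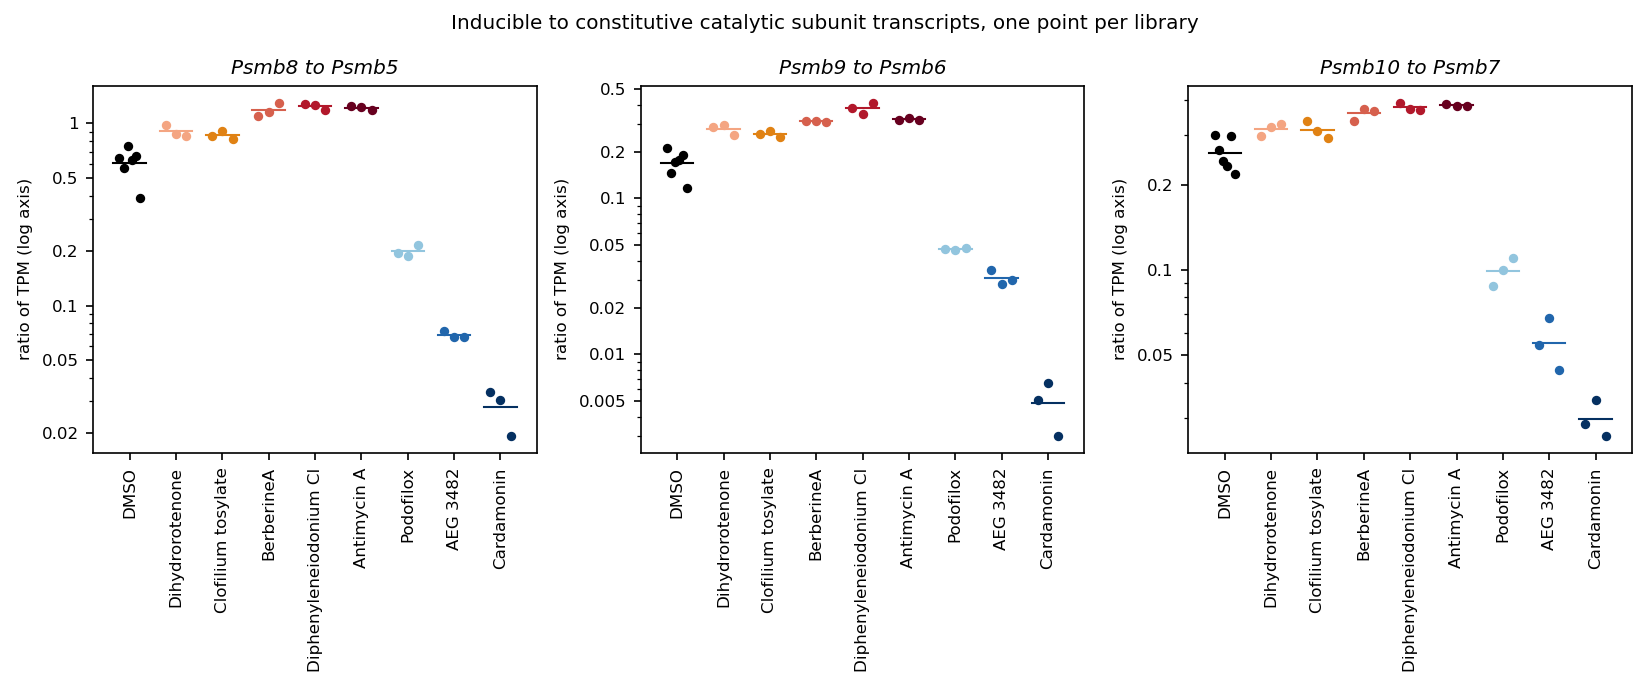
Ratio of TPM of each inducible catalytic subunit to its constitutive counterpart (y axis, log axis) in every library, by group (x axis). Points are libraries and lines are group means. The Psmb8 to Psmb5 ratio spans 0.391 to 0.756 in DMSO and 0.0193 to 0.0337 in Cardamonin.

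By RefSeq's starts Tap1 and Psmb9 run in opposite directions from the 225 bases shown above, while in GENCODE M21 the Psmb9 gene reaches past them into Tap1. As given above, with AEG 3482 Psmb9 fell while Tap1 did not pass the test. The ratio of Psmb9 to Tap1, chosen after the values had been seen and given with no test, was 0.783 to 1.02 in DMSO and 0.775 to 0.878 with Antimycin A, ranges that overlap. It was 0.218, 0.182 and 0.229 with AEG 3482 and 0.0881, 0.129 and 0.0757 with Cardamonin. Podofilox lay between, at 0.754, 0.550 and 0.629. All libraries of these 3 compounds lay below DMSO.

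**Figure D4:**
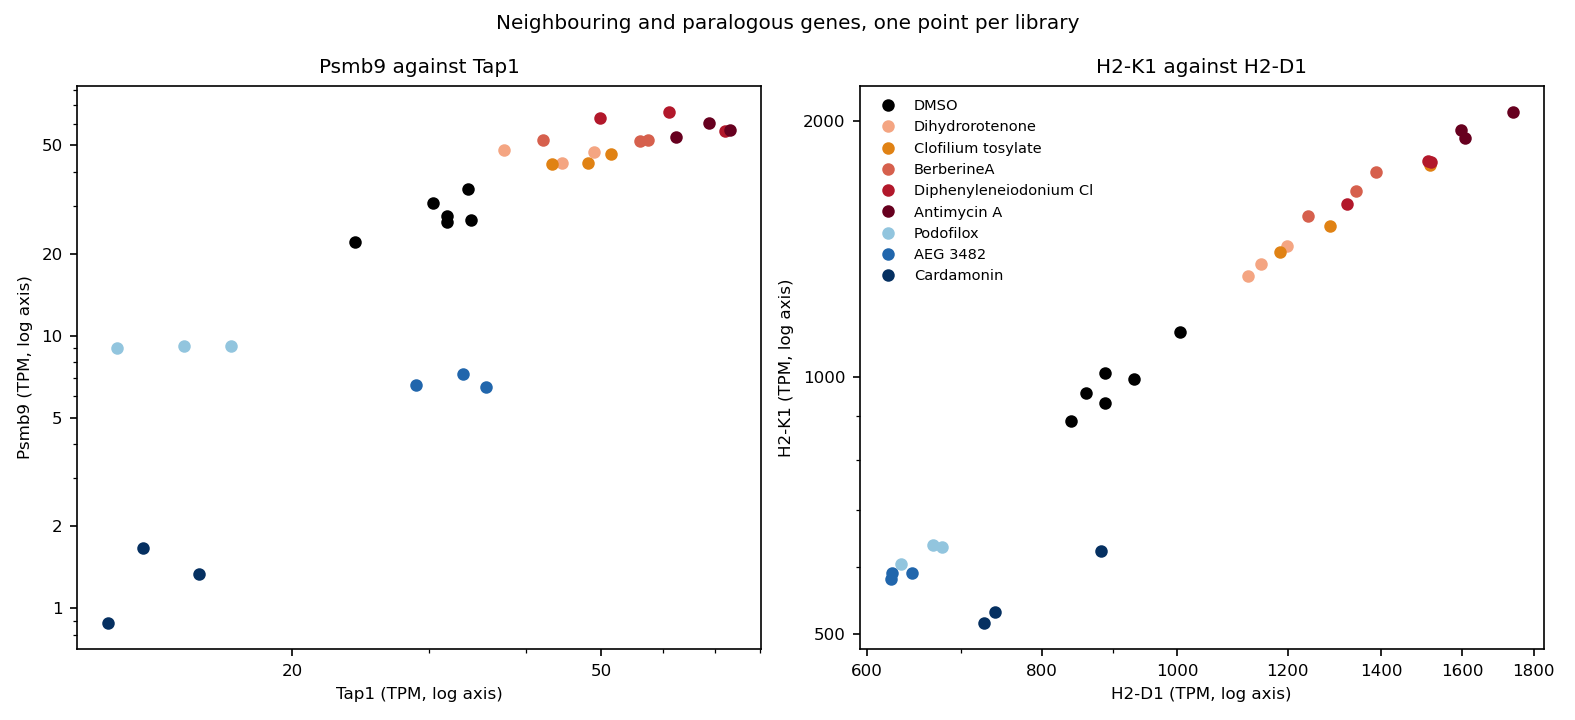
Psmb9 against Tap1 (left) and H2-K1 against H2-D1 (right), in TPM on log axes, 1 point per library coloured by group. The AEG 3482 libraries overlap DMSO in Tap1 at a Psmb9 level of 6.47 to 7.21 TPM, and the Cardamonin libraries lie below the line of the others on the right.

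Nlrc5, the class I transactivator, was the lowest member and the one with the largest spread relative to its mean in DMSO, at 2.82 to 6.01 TPM with a median of 3.65 in DMSO. It rose with Antimycin A (9.15, 8.06 and 6.58 TPM, 0.84 ± 0.22, limma adjusted p = 0.00301) and fell with AEG 3482 (2.23, 2.13 and 0.904 TPM, -0.88 ± 0.22, adjusted p = 0.000826). Both groups lay outside the DMSO range. It also passed with Diphenyleneiodonium Cl (0.62 ± 0.22, adjusted p = 0.0359) and Clofilium tosylate (0.64 ± 0.22, adjusted p = 0.0317), and each of these calls was lost without any 1 of the 3 libraries of its compound and without DMSO replicate 3, 4 or 6. The libraries were at 7.71, 5.76 and 6.43 TPM and 6.20, 8.18 and 5.95 TPM, and both groups overlapped DMSO. The Diphenyleneiodonium Cl call was also lost without DMSO replicate 1 (adjusted p = 0.0528). Over the libraries left out, the highest adjusted p was 0.155 for Diphenyleneiodonium Cl and 0.175 for Clofilium tosylate. With Cardamonin, which had the lowest level of 8 other members, Nlrc5 was at 4.55, 2.60 and 6.80 TPM, spanning the DMSO range (0.12 ± 0.22, adjusted p = 0.627). It did not pass with Podofilox (2.22, 3.11 and 3.99 TPM, -0.29 ± 0.22, adjusted p = 0.291), BerberineA (5.90, 6.41 and 4.58 TPM, 0.41 ± 0.22, adjusted p = 0.188) or Dihydrorotenone (3.36, 2.54 and 3.28 TPM, -0.29 ± 0.22, adjusted p = 0.421).

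Ranking the 9 groups by mean level put Antimycin A highest for 7 members and Diphenyleneiodonium Cl highest for Tap2, Tapbp and Psmb9. Cardamonin was lowest for 8 members and AEG 3482 for H2-D1 and Nlrc5. Of the 80 pairs of neighbours in these rankings 29 passed the threshold in limma. No pair of neighbours within the 5 compounds with rises passed, although Antimycin A and Dihydrorotenone did differ for 7 members, as given next. These compounds were not both ends of that order for Tap2, Tapbp, Psmb8 and Psmb9, and no test of the ends is given for those members. The profile of a member over the 9 group means correlated with the mean profile of the other 9 at a Pearson r of 0.909 (Tap1) to 0.990 (B2m and H2-K1), and at 0.649 for Nlrc5, a description over 9 points from shared libraries.

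Antimycin A and Dihydrorotenone, the compounds with the highest and the lowest median rise, were compared directly. Antimycin A was higher for 7 members, beside 11.6% of all genes tested called higher and 3.91% called lower. Nlrc5 differed most (1.13 ± 0.25, limma adjusted p = 0.00245), then Tap1 (0.64 ± 0.15) and H2-K1 (0.53 ± 0.08). Tapbp (0.05 ± 0.10, adjusted p = 0.821), Tap2 (0.18 ± 0.10, 0.237) and Psmb9 (0.30 ± 0.11, 0.0719) did not pass.

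Cardamonin and AEG 3482 differed for 8 members (background 22.6% higher, 32.7% lower with Cardamonin). Psmb9 (-1.77 ± 0.11, limma adjusted p = 1.09e-12), Tap1 (-1.24 ± 0.15), Psmb8 (-1.05 ± 0.11), Tapbp (-0.91 ± 0.10), Tap2 (-0.88 ± 0.10) and Psmb10 (-0.62 ± 0.11) were lower with Cardamonin. H2-D1 (0.30 ± 0.08, adjusted p = 0.00211) and Nlrc5 (1.01 ± 0.25, 0.00128) were higher with Cardamonin. B2m (-0.13 ± 0.07, 0.149) and H2-K1 (-0.08 ± 0.08, 0.438) did not pass. Against Podofilox, Cardamonin was lower for 6 members and higher for H2-D1 (background 28.7% higher, 29.1% lower). The largest of these was again Psmb9 (-2.15 ± 0.11), and Tap1 (-0.11 ± 0.15, adjusted p = 0.544), H2-K1 (-0.17 ± 0.08, 0.0801) and Nlrc5 (0.41 ± 0.25, 0.162) did not pass.

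Other class I heavy chain genes moved in the same directions as H2-K1. Of 15 listed (H2-Q, H2-T and H2-M genes, Cd1d1 and Mr1), 13 rose and 1 fell with Antimycin A (median 0.92). With Cardamonin 13 fell and 1 rose (median -1.16). With AEG 3482 14 fell and 1 rose (median -0.75), and with Podofilox 11 fell and 2 rose (median -0.68). Of all genes tested, 21.8% were called higher with Antimycin A. Those called lower were 33.0% with Cardamonin, 26.8% with AEG 3482 and 20% with Podofilox. H2-Q4 moved over a wider range than H2-K1, from 62.1, 60.3 and 64.8 TPM with Cardamonin (-1.71 ± 0.08) through 158 to 231 TPM with a median of 217 in DMSO to 655, 622 and 616 TPM with Antimycin A (1.61 ± 0.08). Cd1d1, a lipid-presenting class I-like molecule encoded outside the MHC, went the other way with Cardamonin (69.9, 77.5 and 80.8 TPM, 1.43 ± 0.09, limma adjusted p = 7.58e-14) and Podofilox (0.99 ± 0.09). H2-T3 fell with Antimycin A (-1.23 ± 0.39, adjusted p = 0.0157), but its 6 DMSO libraries spread over 0.719 to 12.95 TPM with a median of 6.14. Many of these genes share sequence with H2-K1, H2-D1 or each other, and how the authors' quantification split shared reads was not tested.

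The standard proteasome went against its inducible subunits with Cardamonin and AEG 3482, and less so with Podofilox. With the 5 other compounds the core medians lay between -0.08 (BerberineA) and 0.03 (Antimycin A). All 14 core subunit genes (Psma1 to Psma7 and Psmb1 to Psmb7) rose with Cardamonin (median 0.84) and with AEG 3482 (median 0.56). With Podofilox 9 rose (median 0.15). Of all genes tested, 37.3% were called higher with Cardamonin, 41.3% with AEG 3482 and 26.2% with Podofilox. The Podofilox count was 4 after median-ratio scaling. With the 5 compounds that raised Psmb8 and Psmb9, at most 2 of the 14 passed in any direction. Psma5 had the largest rise with Cardamonin (1.31 ± 0.05, limma adjusted p = 1.62e-18) and Psmb1 the smallest (0.27 ± 0.05).

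The regulators of the 20S core divided in the same way. Psme1 and Psme2, the interferon-inducible PA28 alpha and beta, fell with Cardamonin (-1.40 ± 0.06 and -0.66 ± 0.06), AEG 3482 (-0.54 ± 0.06 and -0.24 ± 0.06) and Podofilox (-0.67 ± 0.06 and -0.67 ± 0.06). Psme1 rose with all 5 other compounds, to 236, 249.98 and 219 TPM with Antimycin A from 132 to 164 TPM with a median of 150.5 in DMSO. Psme3 (PA28 gamma) and Psme4 (PA200), the nuclear activators, rose with Cardamonin (0.94 ± 0.04 and 1.13 ± 0.07) and AEG 3482 (0.70 ± 0.04 and 0.996 ± 0.07). Limma adjusted p-values of these 10 differences were at most 0.00199. Of all 9 listed activator and assembly genes, 5 rose and 3 fell with Cardamonin (background 37.3% higher, 33.0% lower). With AEG 3482 4 rose and 3 fell (41.3% higher, 26.8% lower), and with Podofilox 2 rose and 2 fell (26.2% higher, 20% lower).

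**Figure D5:**
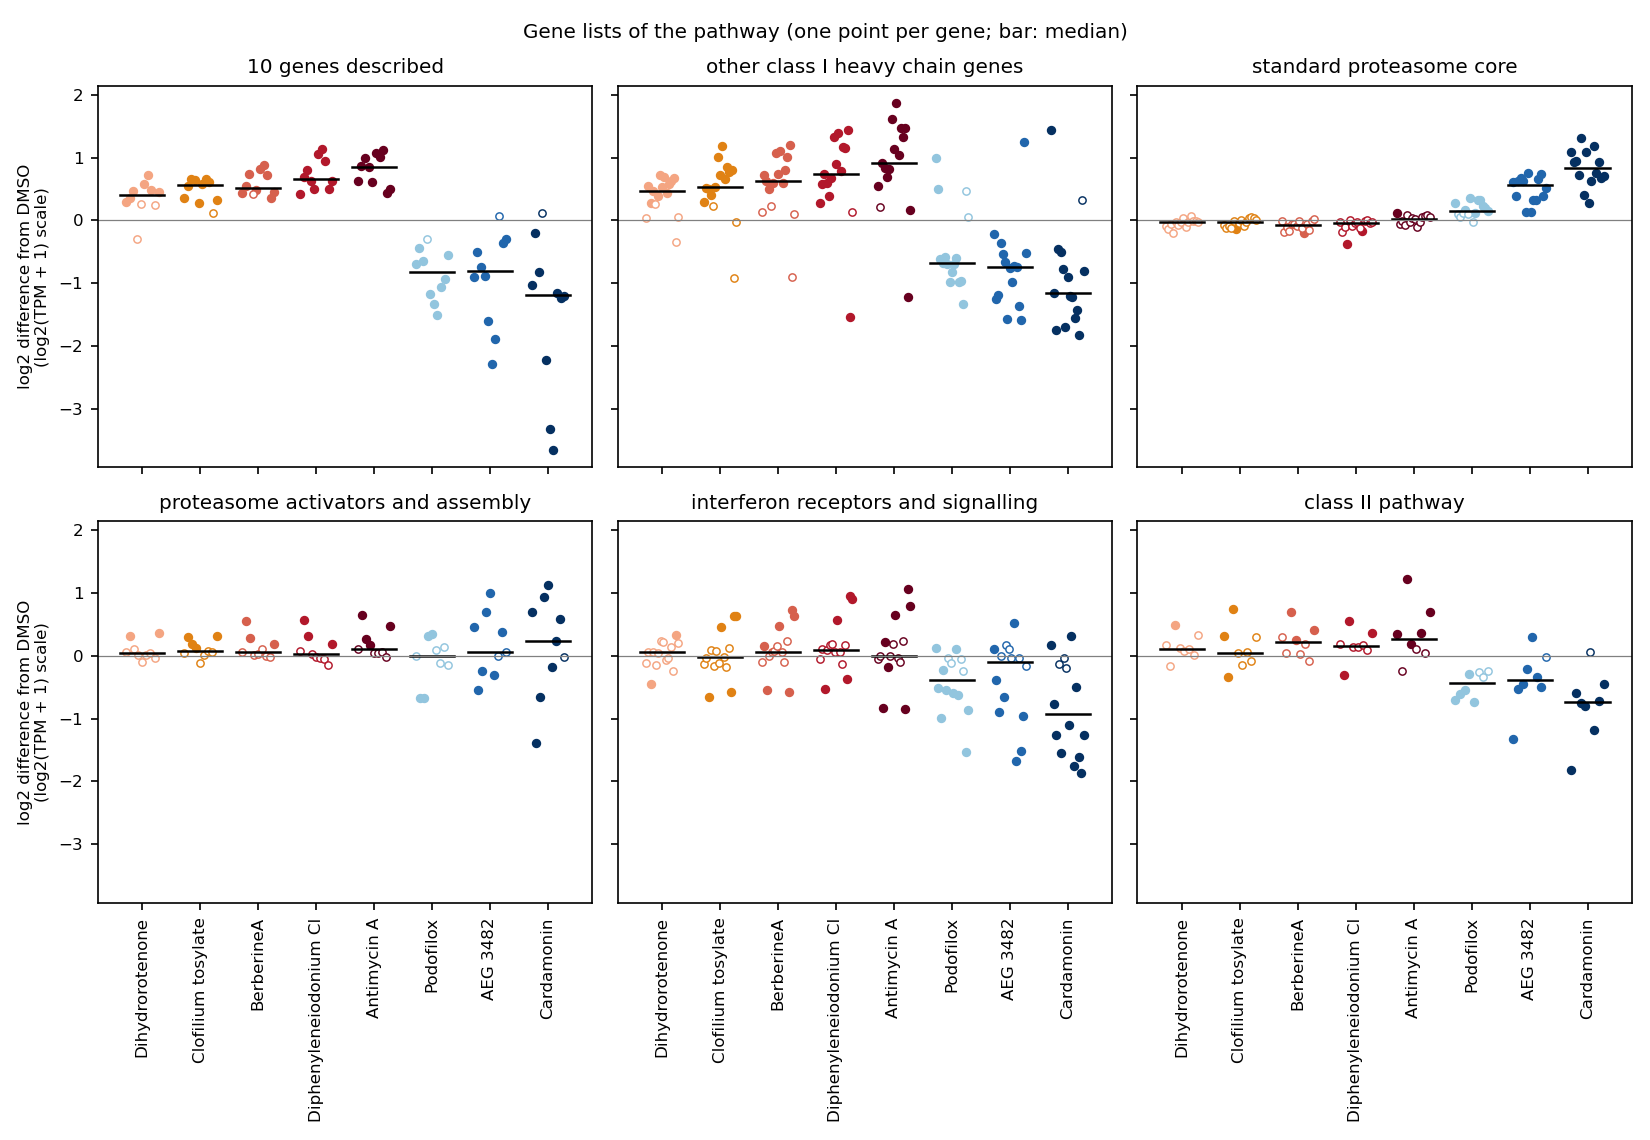
Log2 difference from DMSO (y axis, log2(TPM + 1) scale) of each gene of 6 lists, by compound (x axis). Filled points passed an adjusted p of 0.05 in limma, open points did not, and bars are list medians. The standard proteasome core has its highest medians, 0.84 and 0.56, where the 10 genes described have medians of -1.19 and -0.81.

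The 13 genes of peptide loading and trimming did not move as 1 set. Erap1, the aminopeptidase that trims peptides in the endoplasmic reticulum, rose with Antimycin A (0.63 ± 0.06) and fell with Cardamonin (-1.11 ± 0.06), AEG 3482 (-0.60) and Podofilox (-0.50). Tapbpl, the tapasin-like editor of bound peptides, rose with Antimycin A (0.58 ± 0.07) and fell with Cardamonin (-0.65 ± 0.07). Canx, a general chaperone, rose with Cardamonin (1.09 ± 0.04) and AEG 3482 (0.58 ± 0.04). Calr (calreticulin) and Pdia3, which belong to the class I loading complex, fell with Antimycin A (-0.29 ± 0.05 and -0.14 ± 0.04) and rose with Podofilox (0.44 ± 0.05 and 0.23 ± 0.04). The cytosolic peptidases Tpp2 and Thop1 rose with Cardamonin (0.81 ± 0.07 and 0.59 ± 0.08) and AEG 3482 (0.54 ± 0.07 and 0.85 ± 0.08). In all, 7 of the 13 rose and 4 fell with Cardamonin, and 2 rose and 2 fell with Antimycin A. Of all genes tested, 37.3% were called higher and 33.0% lower with Cardamonin, and 21.8% and 15.5% with Antimycin A. Between these compounds only the rises with Cardamonin stood above their share. Rises stood above the share of all genes with other compounds too. With Podofilox 8 rose and 2 fell (background 26.2% higher, 20% lower). With AEG 3482 7 rose and 5 fell (41.3% higher, 26.8% lower), and with Diphenyleneiodonium Cl 4 rose and 2 fell (14.0% higher, 11.7% lower). These excesses were not tested.

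None of 10 interferon genes (Ifng, Ifnb1, Ifna1, Ifna2, Ifna4, Ifna5, Ifne, Ifnk, Ifnl2 and Ifnl3) passed the filter on low values. Ifna1, Ifna4, Ifna5, Ifnl2 and Ifnl3 were listed at 0 in all 30 libraries. Ifnb1 did not pass 0.186 TPM in any library, Ifng 0.185 and Ifne 0.689. Of 14 tested receptor and signalling genes, 9 fell and 2 rose with Cardamonin, and 4 rose and 3 fell with Antimycin A. Of all genes tested, 33.0% were called lower and 37.3% higher with Cardamonin. With Podofilox 8 of the 14 fell and 2 rose (background 20% lower, 26.2% higher). With AEG 3482 6 fell and 2 rose (26.8% lower, 41.3% higher). With Antimycin A 21.8% were called higher and 15.5% lower, so the counts there lay close to the background. Irf9, a transcription factor of the type I interferon response, rose with Antimycin A (0.65 ± 0.09, limma adjusted p = 1.99e-06) and fell with Cardamonin (-1.10 ± 0.09) and Podofilox (-0.60 ± 0.09), and did not pass with AEG 3482 (-0.04 ± 0.09, adjusted p = 0.743).

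Outside these lists, the 10 named genes whose profile over the 9 group means was most like the mean profile of the members were Phf11d, Il18bp, Usp18, Herc6, Ifi44, Ifit3, Sp100, H2-Bl, Ddx60 and Gbp7, with a Pearson r from 0.998 to 0.993. Ifit3 ranged over group means of 7.78 TPM with Cardamonin, 120 TPM in DMSO and 719 TPM with Antimycin A. Il18bp ranged over 3.27, 18.0 and 48.1 TPM in the same groups.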

How the data were processed

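RNA was measured in 30 libraries. Per the submitters' processing notes, reads were checked with FastQC and quantified with kallisto 0.43.1 for mm10, and per the series text tximport gave the table. The deposited values are TPM per gene, as the authors made them, and a library's listed genes summed to 927024 to 937134 TPM. Read counts are not part of that table, so depth is unknown and no counting interval is given. The transcript annotation behind the index is not given in the sources used here. Of 29861 Ensembl identifiers 29505 had a symbol in GENCODE M21.

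Groups were taken from the labels. With R 4.3.3 and limma 3.58.1, log2(TPM + 1) was fitted with 1 mean per group over all 30 libraries and an intensity trend, for genes with 1 TPM or more in 3 or more libraries, and p-values were adjusted by Benjamini-Hochberg within each contrast. The test was tried on simulated data. Subunit ratios were compared by exact permutation. The 10 members are all named. Other named genes belong to fixed pathway or marker lists or are the 10 whose group means follow the members' most closely. The members and lists were chosen with earlier results of these data known. Same-numbered libraries were not treated as pairs, since their deviations from the group means hardly correlated. Alternatives were other pseudocounts, filters, scalings and sample sets, protein-coding genes only, a replicate block and leaving out each library. The fit on libraries numbered 1 to 3 was added after the data were seen. Of the interferon signalling list 1 gene is not reported here by name. Promoter windows are RefSeq's for GRCm38.p6. Sequence sharing was counted as 31-base words of the GENCODE M21 transcripts, which may not be the authors' index.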

Additional observations from a re-analysis of the deposited data

Results flagged for a closer look

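Among the 6 DMSO libraries, Tap1 was lowest in replicate 6, at 24.1 TPM, and the gap to the next library was 0.628 of the whole range, beyond Dixon's limit for 6 samples. Both ends of the 10 genes were checked, 20 in all, and chance passes about 1 group in 20. The same library was the lowest of the 6 for 9 of the 10 genes, all but Nlrc5. For Psmb8 its gap was 0.622 of the range and for B2m 0.524. Without it the members called higher numbered 10 with Antimycin A, 7 with Dihydrorotenone, 9 with Diphenyleneiodonium Cl, 9 with BerberineA and 8 with Clofilium tosylate, and those called lower numbered 9 each with Cardamonin, AEG 3482 and Podofilox. What set this library apart was not tested.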

How the results depend on the processing

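The counts of members called stayed within 1.5 times in all alternatives tried: 9 to 10 with Antimycin A, 6 to 9 with Dihydrorotenone, 9 to 10 with Diphenyleneiodonium Cl, 8 to 9 with Cardamonin (lower), 8 to 9 with BerberineA, 6 to 9 with Clofilium tosylate, 8 to 9 with AEG 3482 (lower) and 9 with Podofilox (lower). Of 72 member differences past the threshold, 64 were past it in the same direction in every alternative that gave a value. The filter on a mean of 5 TPM gave none for Nlrc5. The other 8 were B2m and Tap1 with Dihydrorotenone, Nlrc5 with Diphenyleneiodonium Cl, H2-D1 with Cardamonin, Tap2 with BerberineA, and Tapbp, Psmb10 and Nlrc5 with Clofilium tosylate. Of those not past it, Tap1 with AEG 3482 changed sign under median-ratio scaling (-0.0280) and quantile normalization (-0.0816) and, in libraries numbered 1 to 3, with the replicate block and without it (-0.0292 each). Nlrc5 with Cardamonin ran from -0.144 without Cardamonin replicate 3 to 0.413 without replicate 2. The cause of these changes was not tested. With a pseudocount of 5 the low genes moved by over 1.5 times, by construction: Psmb9 with Cardamonin to -2.38, and Nlrc5 to 0.52 with Antimycin A, 0.37 with Diphenyleneiodonium Cl, 0.38 with Clofilium tosylate and -0.42 with AEG 3482.

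In the log2 subunit ratios against DMSO, leaving out 1 library gave, for Psmb8 to Psmb5, 0.91 to 1.10 with Antimycin A, 0.47 to 0.66 with Dihydrorotenone, 0.93 to 1.12 with Diphenyleneiodonium Cl, 0.40 to 0.59 with Clofilium tosylate, -3.23 to -3.04 with AEG 3482 and -1.72 to -1.53 with Podofilox. For Psmb9 to Psmb6 it gave 0.86 to 1.03 with Antimycin A, 0.82 to 0.99 with BerberineA, 0.54 to 0.71 with Clofilium tosylate and -1.89 to -1.72 with Podofilox, and for Psmb10 to Psmb7 0.53 to 0.62 with Antimycin A and 0.50 to 0.59 with Diphenyleneiodonium Cl. These are not all the ratios. The widest ranges were with Cardamonin, -5.40 to -4.83 for Psmb9 to Psmb6 and -4.62 to -4.22 for Psmb8 to Psmb5. No sign changed in any ratio.

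Over all genes, Dihydrorotenone gave 1963 calls, 898 with its own and the DMSO libraries only, 1233 without its replicate 1 and 1266 without its replicate 2. Of the counts in the pathway lists under the other settings, 406 stayed within 1.5 times and 42 moved further, most of them counts of 3 or fewer. Larger ones were the standard core with Podofilox (9 higher, 4 after median-ratio scaling) and with Diphenyleneiodonium Cl (2 lower, 5 after rescaling without the 20 most abundant genes) and peptide loading with AEG 3482 (7 higher, 4 after quantile normalization).

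Libraries share replicate numbers, and the numbers gave little sign of pairing: over 108 same-numbered pairs the median correlation of deviations was 0.0071. Of these pairs 4 were over 0.1, and 12 of 27 libraries were closest to their own number, a count with no chance level given. Over all genes, the replicate block on libraries numbered 1 to 3 raised the calls with every compound. They went from 4629 to 4714 with Antimycin A and from 1562 to 1678 with Dihydrorotenone. Whether the numbers mark a weak shared effect was not tested. With the replicate block on libraries numbered 1 to 3 the members called numbered 10, 6, 9, 9, 9, 6, 9 and 9 with Antimycin A, Dihydrorotenone, Diphenyleneiodonium Cl, Cardamonin, BerberineA, Clofilium tosylate, AEG 3482 and Podofilox, the same as without the block in those libraries. Depth could not be weighed, since the values carry no read counts. Nlrc5 lies at a few TPM, and Psmb9 with Cardamonin near 1 TPM (0.878 to 1.66 TPM).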

Other observations

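Most class II genes tested, which serve to present peptides from the endosome and are best known from immune cells, were higher with Antimycin A and lower with Cardamonin, AEG 3482 and Podofilox. H2-Ab1 was the most abundant, at a mean of 43.8 TPM in DMSO and 24.8 TPM with Cardamonin (-0.79 ± 0.06). Of 12 listed genes 8 were tested. With Antimycin A 5 rose, beside 21.8% of all genes tested. With Cardamonin 7 fell, beside 33.0%. With AEG 3482 6 fell and 1 rose, beside 26.8% called lower, and with Podofilox 5 fell, beside 20%. Cd74, the invariant chain, was at 7.46 to 12.1 TPM with a median of 10.95 in DMSO, 12.96, 13.5 and 12.6 TPM with Antimycin A (0.35 ± 0.12, limma adjusted p = 0.02), 2.10, 1.92 and 2.35 TPM with Cardamonin (-1.82 ± 0.12) and 3.82, 3.23 and 3.10 TPM with AEG 3482 (-1.33 ± 0.12). H2-Aa rose with Antimycin A from a DMSO mean of 1.03 TPM to 3.78 TPM (1.22 ± 0.15, limma adjusted p = 5.52e-07). Ciita, the class II transactivator, did not pass 0.192 TPM in any library. Ctss, a lysosomal protease, did not follow: it fell with Cardamonin (-0.59 ± 0.11) but also with Diphenyleneiodonium Cl (-0.31 ± 0.11) and Clofilium tosylate (-0.34 ± 0.11). The macrophage and dendritic cell marker sums lay below the DMSO range with all 5 compounds that raised the class I genes, and also with Cardamonin and AEG 3482 (149 to 166 TPM), which lowered them.

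Receptor and signalling genes differed in how they moved. Ifngr1, the ligand-binding chain of the interferon gamma receptor, fell with all 8 compounds, from 67.8 to 85.2 TPM with a median of 78.4 in DMSO to 43.8, 40.8 and 43.2 TPM with Antimycin A (-0.83 ± 0.05, limma adjusted p = 4.31e-12) and 33.97, 31.4 and 29.4 TPM with Cardamonin (-1.26 ± 0.05). Socs3, a feedback inhibitor of cytokine signalling, fell with Antimycin A (-0.85 ± 0.13) as well as with Cardamonin (-1.62 ± 0.13) and AEG 3482 (-1.52 ± 0.13). Irf1, a transcription factor that acts at class I and Psmb9 promoters, fell with Cardamonin (-1.55 ± 0.07), AEG 3482 (-0.66 ± 0.07) and Podofilox (-0.55 ± 0.07), and with Antimycin A it fell slightly (-0.18 ± 0.07, limma adjusted p = 0.0447). Stat2 rose with Antimycin A (0.79 ± 0.10) and fell with Cardamonin (-1.26 ± 0.10) and Podofilox (-0.86 ± 0.10), and did not pass with AEG 3482 (-0.17 ± 0.10, adjusted p = 0.143). Jak1, a kinase of the interferon receptors, rose with Cardamonin (0.32 ± 0.04), AEG 3482 (0.53 ± 0.04) and Podofilox (0.11 ± 0.04, limma adjusted p = 0.0487), and Ifnar1, a chain of the type I receptor, rose with Cardamonin (0.17 ± 0.05).

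Of 12 genes for factors that bind class I promoters, Rfx5, a subunit of the complex that holds NLRC5 at them, fell with Cardamonin (-1.38 ± 0.11), AEG 3482 (-0.66 ± 0.11) and Podofilox (-0.43 ± 0.11). Its libraries were at 17.3 to 21.3 TPM with a median of 20.5 in DMSO and 6.54, 6.19 and 8.27 TPM with Cardamonin. Creb1 rose with AEG 3482 (1.07 ± 0.08) and Cardamonin (0.70 ± 0.08). Nfkb1 fell with Cardamonin (-0.94 ± 0.05) and AEG 3482 (-0.60 ± 0.05) and rose with Podofilox (0.22 ± 0.05), and Rela rose with Podofilox (0.57 ± 0.06). With Cardamonin 6 of the 12 rose and 3 fell, beside 37.3% of all genes tested called higher and 33.0% called lower. With AEG 3482 5 rose and 3 fell (41.3% higher, 26.8% lower), and with Podofilox 5 rose and 1 fell (26.2% higher, 20% lower). With Antimycin A 2 of the 12 rose and 1 fell, beside 21.8% of all genes tested called higher and 15.5% called lower. After median-ratio scaling 3 of the 12 fell.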
